A study of Mus musculus with 3 samples.

Results

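The 8 genes described here, *Lhx2*, *Rax*, *Six3*, *Six6*, *Sox2*, *Sox8*, *Sox9* and *Nr2e1*, encode transcription factors of the retinal progenitor network. They were chosen by name from this network and make up 8 of the 19946 genes listed in the count matrix of any of the 3 single-cell libraries. All 8 were present in each library, and they were followed across the cell types that the authors assigned, across agonist dose and across *Sstr2* genotype. The first library held explants of CD1 wild-type retina that were dissected at embryonic day 14, cultured for 6 days on membranes to the equivalent of postnatal day 0, and grown with 0, 5, 50 or 500 nM of an agonist of Sstr2, a somatostatin receptor, with 2 samples per dose. The other libraries held retinas of untreated mice of the C57BL/6 / CD1 background at postnatal day 0 (P0) and postnatal day 14 (P14). At each age they came from 1 sample labelled *Sstr2* +/+ (wild type), 2 labelled +/- (heterozygous) and 2 labelled -/- (knockout). The allele was a germline mutation obtained on C57BL/6NCrl and outcrossed to CD1, so it was carried by all cells and travelled with the chromosome around it. The samples of a library were tagged with lipid-anchored barcodes (MULTI-seq), pooled, and captured in 1 run of 3′ RNA sequencing. How many retinas a sample held is not given in the sources used here. The p-values therefore measure only the spread between these samples, partly or wholly pooled over genes, and that spread may be technical.

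Retinal progenitors divide in the neural retina and give rise to all of its neurons and, last, to Muller glia. Primary progenitors self-renew, whereas neurogenic progenitors have switched on proneural genes and are about to leave the cell cycle. The LIM homeodomain factor Lhx2, the paired-type homeodomain factor Rax and the sine oculis-type factors Six3 and Six6 act from the eye field onward, the HMG-box factors Sox2, Sox8 and Sox9 keep progenitors and later Muller glia in their state, and the orphan nuclear receptor Nr2e1 (Tlx) keeps progenitors dividing. Rax is also known in photoreceptor precursors, and Six3 and Six6 in amacrine and ganglion cells.

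The libraries held 5607 cells (explants), 5706 cells (P0) and 3298 cells (P14). The total per sample was 1281682 to 4237324 unique molecular identifiers (UMIs, counted RNA molecules) in explants, 8822880 to 10793649 at P0 and 1266730 to 5886669 at P14. Levels are in CPM, the UMIs of a gene in the summed cells of 1 type in 1 sample after scaling each sum to the same total. They compare cell types and samples for the same gene. They do not rank genes against each other, since a 3′ count depends on how each transcript's end is captured. The libraries shared 9 (explant and P0), 4 (explant and P14) and 7 (P0 and P14) cell barcodes. Both 500 nM samples and 1 of the 5 nM samples were at 98.3% to 99.3% of cells with an *Xist* UMI, while the other 5 explant samples were at 57.7% to 62.4%, so sex makeup and the highest dose cannot be told apart without restricting the cells. At P0, heterozygous replicate 1 and knockout replicate 2 were at 99.4%, and the other samples were at 1.91% to 2.90%. At P14, heterozygous replicate 2 was at 72.7%, and the other samples were at 1.80% to 4.29%. The 5 explant samples at 57.7% to 62.4% and P14 heterozygous replicate 2 may thus hold cells of more than 1 animal, which was not tested. The genotype comparisons were not restricted by *Xist*. *Sstr2* itself was not lower in the samples labelled knockout. In P0 neurogenic progenitors it stood at 112 CPM in the wild type, 189 and 248 CPM in the heterozygotes and 294 and 375 CPM in the -/- samples (log2 fold change of 1.57, adjusted p = 0.0041 by edgeR's quasi-likelihood test). Transcript ends are therefore still counted from the targeted gene, and its level gives no check of the genotype labels, by which alone the samples are called wild type, heterozygous or knockout here.

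Across all 3 libraries, the 8 genes were mostly genes of primary progenitors and Muller glia. Of the 24 pairs of a gene and a library, 18 had their highest median level in primary progenitors (explants and P0) or in Muller glia (P14), and at P14 this held for all 8 genes. The 6 exceptions were *Rax*, *Six3* and *Six6* in explants and at P0, where photoreceptor precursors, amacrine cells or retinal ganglion cells (RGCs) were highest. These levels are described without a test, because the authors named the cell types from clusters of the same cells and genes.

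**Figure D1:**
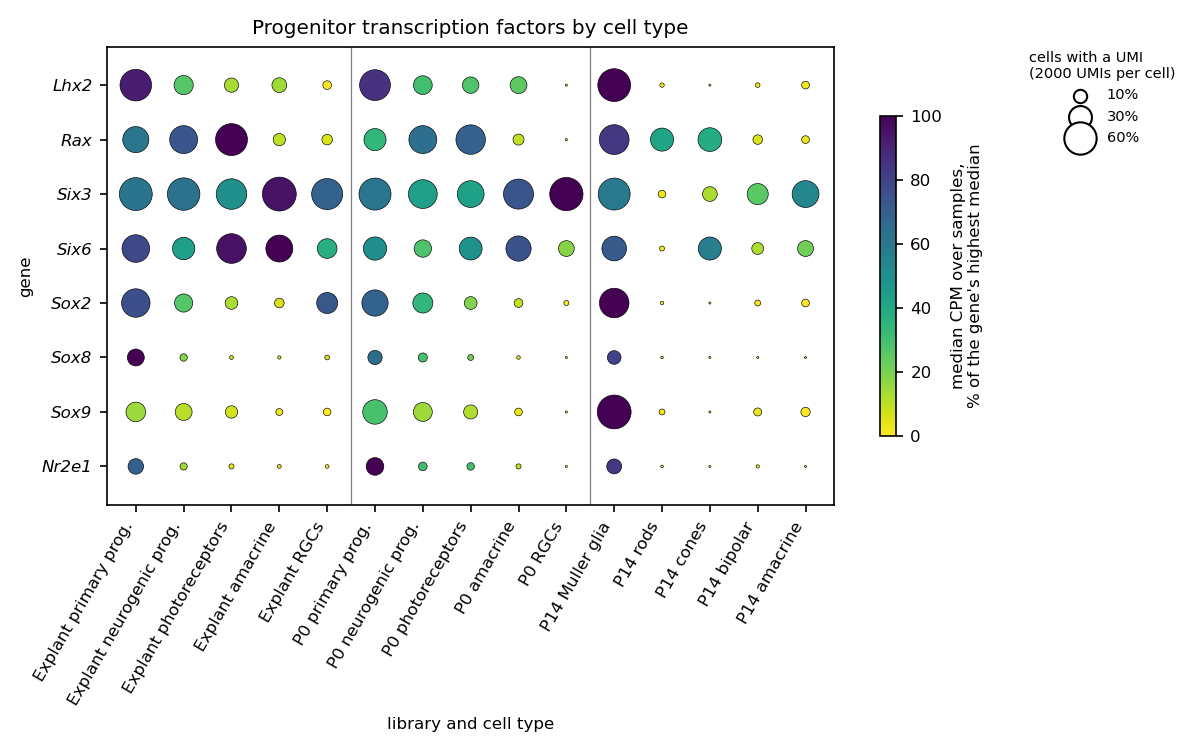
Level and reach of the 8 genes in the 15 combinations of library and cell type. Dot area gives the percent of cells with a UMI after each cell was thinned to 2000 UMIs, and colour gives the level (median CPM over samples) as a percent of the gene's highest median in any library. Primary progenitors and Muller glia hold large, dark dots for most genes, while *Rax*, *Six3* and *Six6* also reach photoreceptors, amacrine cells or RGCs.

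After every cell was thinned to 2000 UMIs so that depth did not differ, a primary progenitor held a UMI of 3.0 of the 8 genes on average in explants and of 2.75 at P0. Neurogenic progenitors held 1.95 (explants) and 1.81 (P0). Muller glia held 3.44, the highest mean of the 15 combinations of library and cell type, while rods held 0.380. At least 4 of the 8 genes were seen together in 35.8% of explant primary progenitors, 28.3% of P0 primary progenitors and 50.4% of Muller glia, but in 7.03% of P0 neurogenic progenitors and 0.0506% of rods. Cells with UMIs of several of the 8 genes were thus most common among primary progenitors and Muller glia. Explant photoreceptors stood near the neurogenic progenitors, with a mean of 1.93 and at least 4 genes in 6.85%. Whether the genes were seen together more often than their single shares give was not tested.

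*Lhx2*, which lies at chr2:38339281-38369733 (GRCm38, plus strand), was a gene of primary progenitors and Muller glia. In explants it had a lowest, median and highest level of 394, 437 and 495 CPM in primary progenitors and 71.6, 125 and 166 CPM in neurogenic progenitors. Amacrine cells (median 66.9 CPM) and photoreceptors (61.4 CPM) overlapped each other and the lower neurogenic samples. At P0 primary progenitors were again highest, with 365, 407 and 438 CPM in primary progenitors and 128, 143 and 169 CPM in neurogenic progenitors. The samples of primary progenitors lay above all those of any other type in both libraries. P0 RGCs had only 9 UMIs of *Lhx2* in 85 cells, and after thinning 0 of 85 held a UMI. At P14 *Lhx2* was a Muller glia gene, with 412, 475 and 603 CPM. Rods, the most numerous P14 cells, were at 1.20 to 9.27 CPM and cones had 0 UMIs in 115 cells, which allows up to 2.49 CPM. After thinning, a UMI was seen in 57.2% of explant primary progenitors, 54.5% of P0 primary progenitors and 61.7% of Muller glia, against 0.861% of rods.

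*Sox2* (chr3:34650405-34652461, plus strand, inside the longer noncoding gene *Sox2ot* on the same strand, so that reads of this region may come from either) was also higher in primary than in neurogenic progenitors. In explants, primary progenitors had 280, 328 and 368 CPM and neurogenic progenitors 88.1, 115 and 156 CPM. At P0 the values were 255, 296 and 308 CPM against 135, 150 and 165 CPM. The primary progenitors did not overlap the neurogenic progenitors in either library. Muller glia had 375, 433 and 501 CPM at P14, while the highest value in any other P14 cell type was 15.5 CPM, in amacrine cells. RGCs were the exception. In P0 RGCs *Sox2* lay between 0 and 7.03 CPM, but in the explant cluster that the authors called RGCs it reached 158, 316 and 542 CPM, which overlapped the primary progenitors. The 542 CPM came from 7 UMIs in the 5 cells of 0 nM replicate 2.

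The explant RGC cluster held markers of both ganglion and amacrine cells, while the paper states that its explants lack viable RGCs. All 6 genes of the ganglion cell marker list were found in it, with *Pou4f1* at 419 CPM and *Rbpms* at 371 CPM. *Isl1* of this list, which is not limited to ganglion cells, was at 779 CPM. The amacrine factor *Tfap2b* was found as well, at 411 CPM over all cells of the cluster and 229 to 647 CPM by sample. The other 5 amacrine markers checked were at 1.49 (*Slc6a9*) to 58.1 CPM (*Tfap2a*). In P0 RGCs *Tfap2b* was at 0 and *Isl1* was at 361 CPM. The other genes of the ganglion cell list were higher there than in the explant cluster. The axonal gene *Sncg* was at 3188 against 316 CPM, *Nefl* at 2285 against 298 CPM and *Pou4f2* at 99.1 against 56.6 CPM. *Rbpms* was at 727 CPM and *Pou4f1* at 685 CPM in P0 RGCs. *Sox2* followed the split between *Tfap2b* and *Pou4f1*. A *Sox2* UMI was seen in 47 of the 61 explant cells with *Tfap2b* and no *Pou4f1* (77.0%), but in 6 of the 84 with *Pou4f1* and no *Tfap2b* (7.14%), at median depths of 3318 and 3004.5 UMIs. It was seen in 2 of 13 cells with both and 2 of 42 with neither. Most cells of this cluster with a *Sox2* UMI thus held *Tfap2b*. Sox2 is known in the cholinergic class of amacrine cells, for which no marker list was checked here.

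*Sox8* (chr17:25565892-25570686, minus strand) and *Nr2e1* (chr10:42561963-42583632, minus strand) had the steepest fall from primary to neurogenic progenitors in explants. There *Sox8* had 77.6, 90.7 and 101 CPM in primary progenitors against 9.62, 16.9 and 23.4 CPM in neurogenic progenitors, and *Nr2e1* had 54.9, 72.3 and 97.7 CPM against 4.81, 14.9 and 22.1 CPM. The medians of photoreceptors and amacrine cells were below 5 CPM for both genes. At P0 the gap was narrower. *Sox8* had 50.6, 58.7 and 63.8 CPM in primary and 21.7, 26.8 and 31.9 CPM in neurogenic progenitors, and *Nr2e1* had 94.6, 104 and 113 CPM against 26.8, 31.7 and 38.7 CPM. In Muller glia *Sox8* had 49.6, 72.8 and 101 CPM and *Nr2e1* 82.8, 87.7 and 103 CPM. The other P14 cell types together held 6 UMIs of *Sox8* and 13 of *Nr2e1*.

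*Sox9* (chr11:112782224-112787760, plus strand) reached its highest level in Muller glia. In explants it overlapped between primary progenitors (97.2, 144 and 171 CPM) and neurogenic progenitors (67.4, 101 and 154 CPM). At P0 primary progenitors (221, 275 and 289 CPM) lay above neurogenic progenitors (121, 141 and 151 CPM), which lay above photoreceptors (75.7 to 119 CPM). At P14 Muller glia reached 757, 951 and 1036 CPM. Bipolar cells, the next type, were at 10.0 to 42.8 CPM. After thinning, 65.7% of Muller glia held a *Sox9* UMI against 34.4% of P0 primary progenitors, 21.9% of explant primary progenitors and 1.77% of rods. The levels of P0 and P14 come from separate libraries, so the step between them also holds any difference between those libraries.

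**Figure D2:**
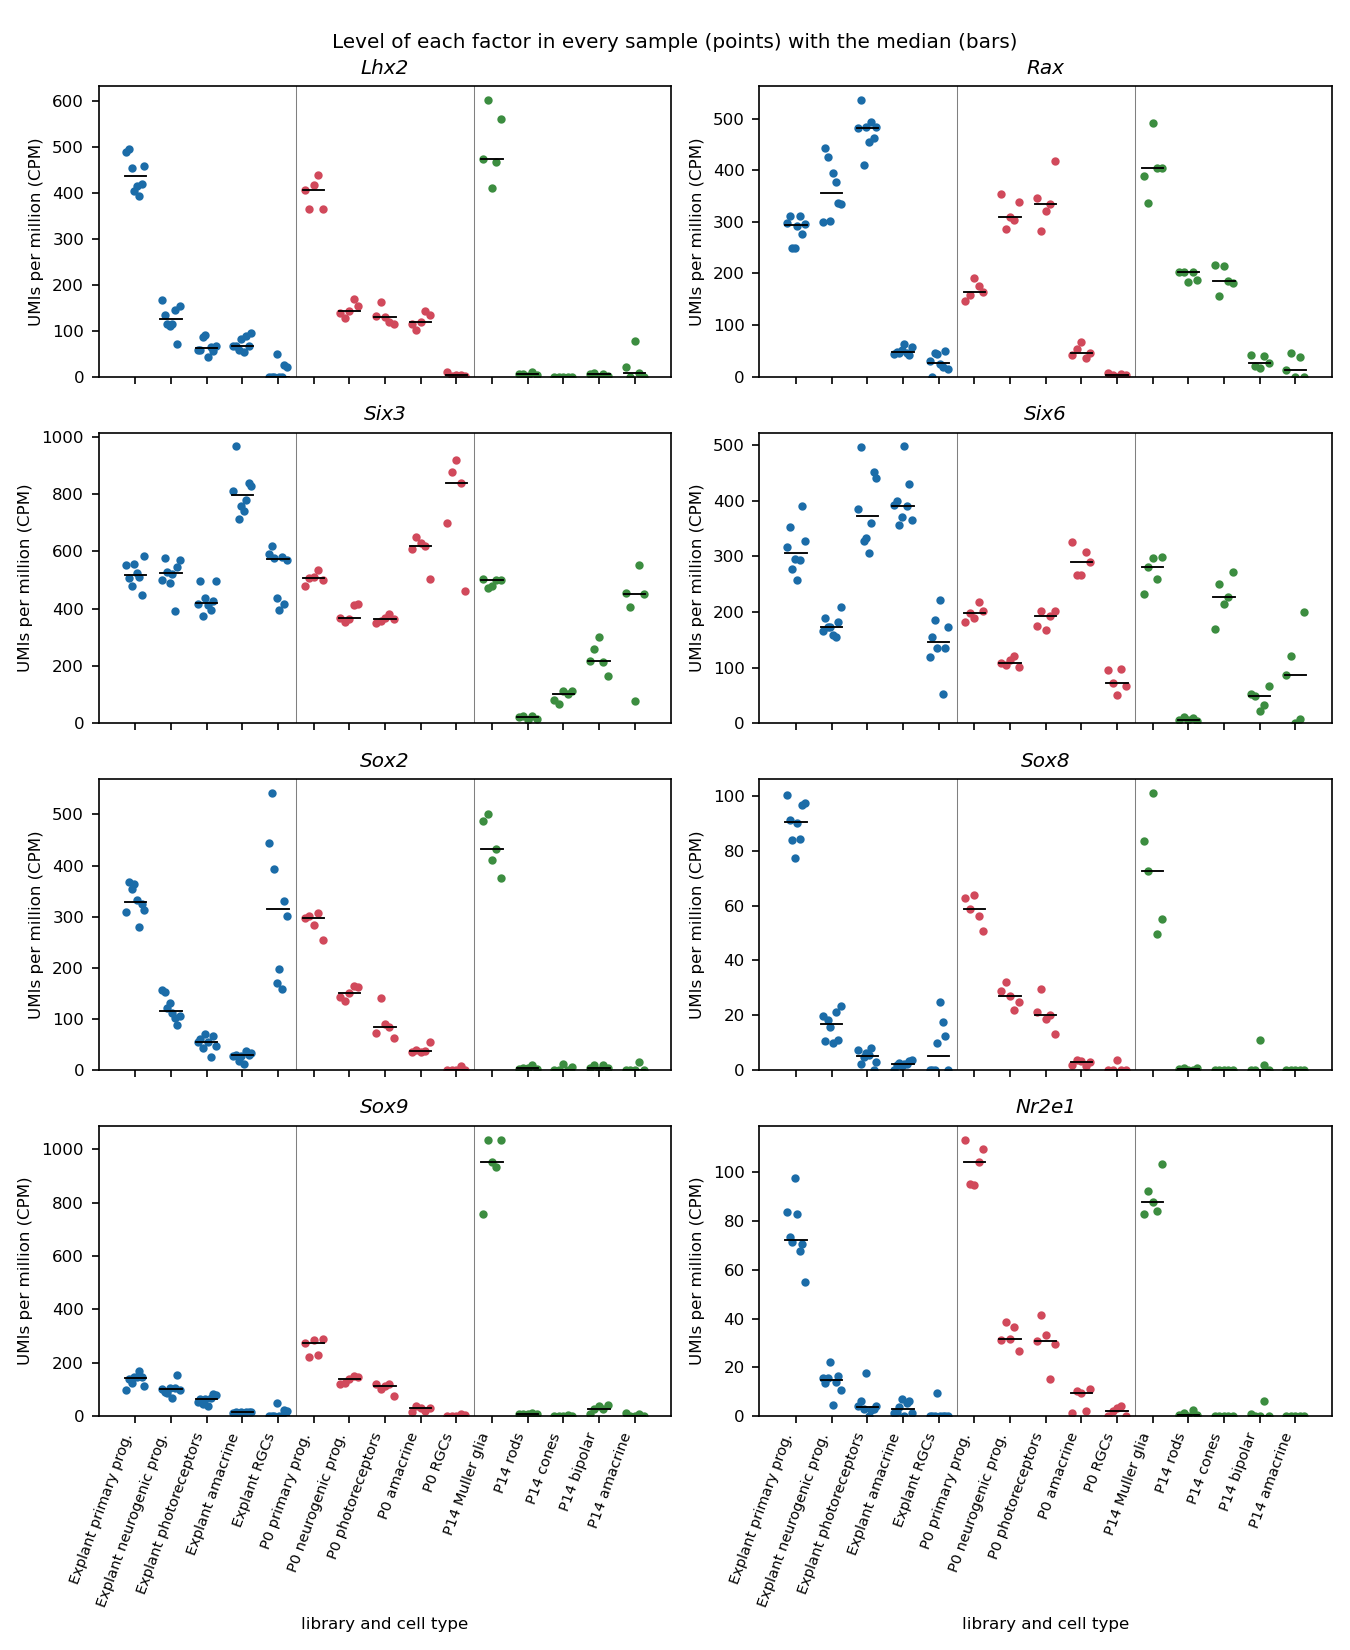
Level of each of the 8 genes in CPM by cell type, with 1 point per sample (8 explant, 5 P0 and 5 P14 samples) and each gene on its own linear axis. *Lhx2*, *Six6*, *Sox2*, *Sox8* and *Nr2e1* separate primary progenitors from neurogenic progenitors in explants and at P0, and all 8 genes have their highest P14 median in Muller glia. The share of all genes that separate these progenitors is not given.

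*Rax* ran the other way. In explants it was highest in photoreceptors (410, 483 and 537 CPM), then in neurogenic progenitors (299, 357 and 444 CPM), then in primary progenitors (250, 295 and 312 CPM), with each neighbour in this order overlapping the next. At P0 photoreceptors (282, 335 and 418 CPM) and neurogenic progenitors (285, 310 and 355 CPM) overlapped, and both lay above primary progenitors (147, 165 and 191 CPM). Amacrine cells stayed at 67.0 CPM or below in both libraries. At P14 *Rax* was seen in Muller glia (337, 404 and 493 CPM) and in both photoreceptor types, with 184, 202 and 202 CPM in rods and 156, 185 and 216 CPM in cones, which overlapped. After thinning, a *Rax* UMI was seen in 30.4% of rods, and the next of the 8 genes, *Six3*, in 3.09%.

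The paralogs *Six3* and *Six6*, whose products share a homeodomain, were also found in several neuron types. *Six3* (chr17:85613608-85629302, plus strand, overlapped by the antisense gene *Six3os1*, while whether the counting used strand is not given in the sources used here) was highest in amacrine cells of explants, at 713, 795 and 966 CPM, above all samples of the other types. RGCs (395, 574 and 620 CPM), neurogenic progenitors (391, 524 and 575 CPM), primary progenitors (448, 517 and 583 CPM) and photoreceptors (372, 420 and 497 CPM) followed and overlapped. The 620 CPM of RGCs came from 8 UMIs in 5 cells. At P0, RGCs (462, 837 and 918 CPM), amacrine cells (504, 618 and 648 CPM) and primary progenitors (479, 507 and 534 CPM) overlapped in turn, and neurogenic progenitors and photoreceptors lay below them, at 350 to 416 CPM. *Six6* (chr12:72939892-72944899, plus strand) was also highest in amacrine cells, at 357, 390 and 497 CPM in explants and 266, 290 and 325 CPM at P0. Explant photoreceptors (305, 372 and 497 CPM) overlapped them, while P0 photoreceptors (167, 193 and 202 CPM) lay below. Neurogenic progenitors were lower than primary progenitors, at 155 to 209 against 258 to 390 CPM in explants and 100 to 121 against 182 to 218 CPM at P0.

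At P14 the paralogs parted in photoreceptors. *Six6* was in cones at 169, 227 and 271 CPM, which overlapped Muller glia (232, 281 and 299 CPM), but in rods at 3.46, 6.02 and 10.3 CPM. After thinning, a *Six6* UMI was seen in 30.4% of cones and 1.16% of rods. *Six3* was lower in cones (67.1, 102 and 113 CPM) than in bipolar cells (166, 215 and 302 CPM) and was in rods at 9.62, 19.8 and 24.1 CPM. *Six3* in Muller glia (470, 500 and 503 CPM) overlapped the 68 amacrine cells (78.6, 450 and 550 CPM). The 78.6 CPM came from 1 UMI in 4 cells.

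The reference sequence before the RefSeq transcript start of *Six3*, *Six6* and *Sox2* is shown because these genes form the paralog pair and the most widely studied SOX factor of the group. The 250 bases on the 5′ side of the RefSeq transcript start (GRCm38.p6) were read on the plus strand, on which all 3 genes lie. Capitals mark the 2 motifs searched on both strands, the CCAAT box (CCAAT, or ATTGG on the other strand) and the core of the SOX motif (ACAAAG, or CTTTGT), which do not overlap here. The windows are chr3:34649745-34649994 (*Sox2*), chr17:85620584-85620833 (*Six3*) and chr12:72939632-72939881 (*Six6*). The *Sox2* window ends before the start that the gene annotation above gives, while the *Six3* window lies inside the bounds which that annotation gives for *Six3*.
Sox2: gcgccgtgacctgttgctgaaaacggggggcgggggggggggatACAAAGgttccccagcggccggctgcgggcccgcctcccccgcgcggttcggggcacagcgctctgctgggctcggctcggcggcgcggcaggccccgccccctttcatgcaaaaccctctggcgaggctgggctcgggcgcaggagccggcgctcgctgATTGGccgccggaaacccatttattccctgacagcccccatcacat
Six3: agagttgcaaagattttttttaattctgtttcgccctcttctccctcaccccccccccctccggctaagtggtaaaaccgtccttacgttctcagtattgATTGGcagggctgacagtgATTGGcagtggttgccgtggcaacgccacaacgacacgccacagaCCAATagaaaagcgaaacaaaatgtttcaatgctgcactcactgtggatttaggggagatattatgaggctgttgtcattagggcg
Six6: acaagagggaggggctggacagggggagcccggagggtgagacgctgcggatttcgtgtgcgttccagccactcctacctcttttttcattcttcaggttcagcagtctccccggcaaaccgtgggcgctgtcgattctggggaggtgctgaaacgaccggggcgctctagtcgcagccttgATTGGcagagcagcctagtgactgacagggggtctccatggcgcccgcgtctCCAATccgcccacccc
*Six3* has 3 CCAAT matches and *Six6* has 2, and neither has ACAAAG in this window. *Sox2* has 1 of each. Of 32851 such windows of mouse genes, 33.8% hold CCAAT and 16.5% hold ACAAAG on either strand. Windows were found for 6 of the 8 genes. These matches are a description of the letters, since binding was not measured.

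Within each sample, the step from primary to neurogenic progenitors split the 8 genes. In explants the level in primary progenitors divided by that in neurogenic progenitors had a median over samples of 5.04 for *Sox8*, 4.93 for *Nr2e1*, 3.62 for *Lhx2*, 2.87 for *Sox2* and 1.78 for *Six6*, and these were higher in primary progenitors in 8 of 8 samples. *Sox9* had a ratio of 1.40 (higher in 6 of 8 samples) and *Six3* of 1.01 (5 of 8). *Rax* had a ratio of 0.827 and was lower in primary progenitors in 8 of 8 samples. At P0 the ratios were 2.98 for *Nr2e1*, 2.86 for *Lhx2*, 2.19 for *Sox8*, 1.95 for *Sox9*, 1.90 for *Sox2*, 1.80 for *Six6* and 1.30 for *Six3*, with primary progenitors higher in 5 of 5 samples. *Rax* was at 0.555 and again lower in every sample. *Six6* kept almost the same ratio in culture and in vivo, and *Rax* was the only one of the 8 genes below 1 in both libraries. The share of all genes with the same order in every sample is not given, so these counts cannot be set against it.

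The pattern of each gene over the 15 library and cell type means was set beside that of 10229 other genes by Pearson's r of log2(CPM + 1). The means of 1 library share its depth and cells, so r is given as a description. *Sox2* ran with *Espn* (r = 0.97), *Sox8* (0.94) and *Lrrc58* (0.93). *Sox8* ran with *Aif1l* (0.98), *Prss23* (0.97) and *Pla2g16* (0.97). *Nr2e1* ran with *Suclg2* (0.98), *Gpc3* (0.97) and *Aif1l* (0.97). *Lhx2* was closest to *Dhrs4* (0.96), *Mmp14* (0.96) and *Smox* (0.95), and *Sox9* to *Itgb8* (0.96), *Tulp3* (0.95) and *Col4a5* (0.95). For *Rax* the closest genes were *Zbtb18* (0.96), *Golim4* (0.93) and *Cpne3* (0.93). For *Six3* they were *Sh3bgrl3* (0.96), *Cyb5r3* (0.94) and *Ap1s1* (0.94). *Six6* had the loosest matches, with *Ptprg* (0.85), *Nt5c3b* (0.84) and *Pank1* (0.83). Among the 8 genes, *Nr2e1* and *Sox8* were most alike (0.97), *Six3* and *Six6* reached 0.74, and *Rax* and *Six3* were at -0.25.

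The explants address whether activating Sstr2 alters the progenitor network. With the counts of each sample and cell type summed and the 500 nM samples compared with the 0 nM samples, none of the 8 genes passed an adjusted p of 0.05 in any cell type. In all, 29 tests of a gene in a cell type were possible after the filter on low counts. In the RGC cluster 0 nM replicate 2 held 5 cells and was left out, so the tests there rest on 1 untreated sample of 11 cells. There edgeR's prior degrees of freedom, the weight of the spread pooled over genes, were infinite, so a gene's own spread did not enter its test. By edgeR's quasi-likelihood test 0 of 29 were called and 6 were below an unadjusted p of 0.05, while DESeq2 called 0 with 3 below it. Of all 8188 genes tested in amacrine cells, 432 were below it by edgeR and 49 by DESeq2. Of all 6072 tested in neurogenic progenitors, 318 and 17 were. For the other cell types such counts are not given here. Of all genes tested, 0.317% were called in primary progenitors, 0.0988% in neurogenic progenitors, 0.0941% in photoreceptors, 0.269% in amacrine cells and 0% in the RGC cluster. The share in primary progenitors was 2.67% without 500 nM replicate 1, 0.202% without 500 nM replicate 2, and 0.0653% and 0.0763% without 0 nM replicates 1 and 2. A trend over the 4 doses called 0 of 29 by edgeR (8 below an unadjusted 0.05) and 0 by DESeq2 (5 below it). Of all 8188 genes in amacrine cells, 407 had a trend below it by edgeR and 118 by DESeq2.

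In primary progenitors, 4 of the 8 genes were lower in both 500 nM samples than in both 0 nM samples and none was higher in both. Of all 8514 genes tested there, 14.9% did the former and 22.8% the latter. *Rax* had 299 and 311 CPM without agonist, 277 and 297 CPM with 5 nM, 292 and 312 CPM with 50 nM and 250 CPM in both samples with 500 nM. The 500 nM samples were the lowest of the 8, and the other doses overlapped. The log2 fold change was -0.34 ± 0.13 (SE, n = 2 per dose), with adjusted p = 0.446 by edgeR. *Lhx2* went from 490 and 495 CPM to 454 and 405 CPM (-0.25 ± 0.12, adjusted p = 0.562), with 394 to 458 CPM at the middle doses, so all 6 treated samples lay below both untreated samples. *Sox8* went from 101 and 91.2 CPM to 84.2 and 77.6 CPM (-0.32 ± 0.16, adjusted p = 0.602). *Six6* went from 317 and 352 CPM to 276 and 295 CPM (-0.28 ± 0.13, adjusted p = 0.571). Its 5 nM samples (390 and 328 CPM) overlapped the untreated samples, and its 50 nM samples (258 and 294 CPM) were as low as the 500 nM samples. The shares of all genes above cover 500 against 0 nM only, and none is given for the orders of *Rax* and *Lhx2* over all doses.

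The other 4 genes did not separate the doses in primary progenitors. *Six3* (-0.09), *Sox2* (0.04), *Sox9* (0.16) and *Nr2e1* (0.07) had log2 fold changes near 0, and the untreated samples of each overlapped the 500 nM samples. The median log2 fold change of the 8 genes was -0.17, against 0.01 over all genes tested in primary progenitors. In cells with an *Xist* UMI only, 0 of 25 tests were called and 3 were below an unadjusted 0.05. The share of all genes below it in these cells is not given.

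**Figure D3:**
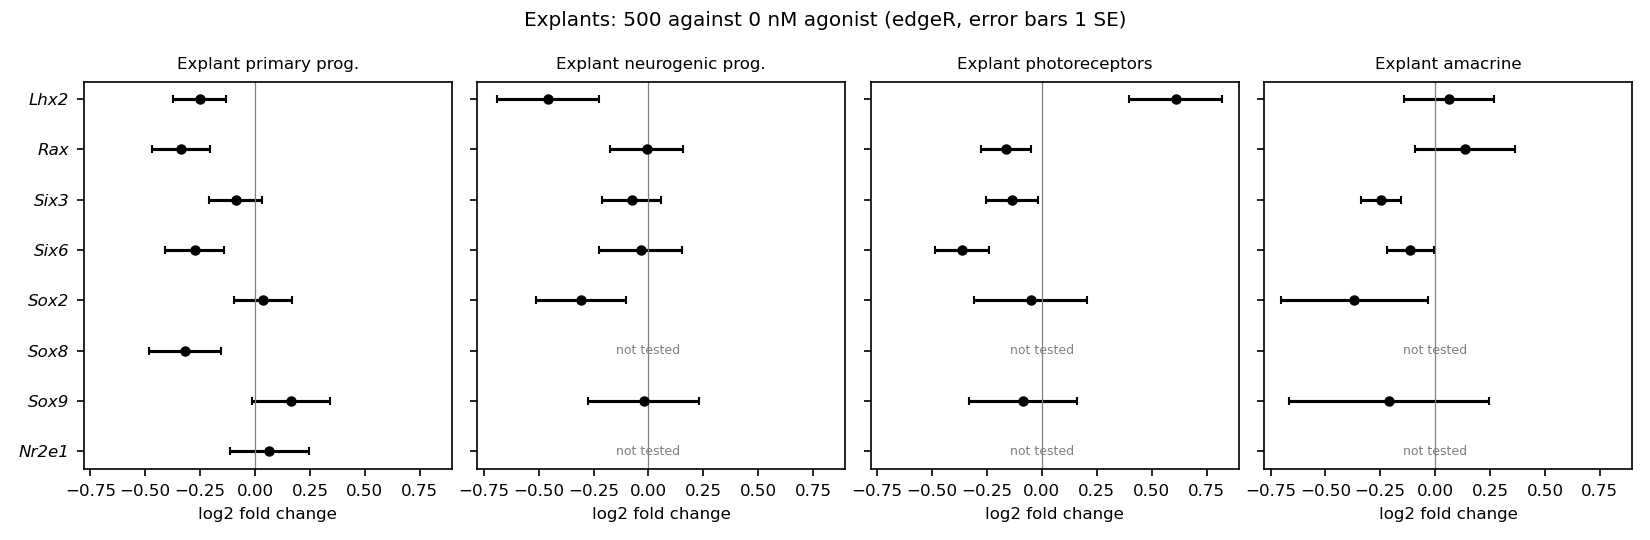
Log2 fold change of the 8 genes, 500 nM against 0 nM agonist, in 4 explant cell types, by edgeR (points, with error bars of 1 SE, n = 2 samples per dose). *Lhx2* lies above 0 in photoreceptors (0.61) and below it in primary (-0.25) and neurogenic (-0.46) progenitors, and genes below the filter on low counts are marked as not tested.

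In neurogenic progenitors, a known site of *Sstr2* in the retina, 2 of the 6 genes tested were lower in both 500 nM samples and none was higher in both, against 16.9% and 18.7% of all genes. *Lhx2* went from 166 and 134 CPM to 115 and 111 CPM (-0.46 ± 0.23 in log2) and *Sox2* from 156 and 151 CPM to 120 and 131 CPM (-0.31 in log2). Neither passed the test.

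In amacrine cells 3 of 6 genes tested, *Six3*, *Six6* and *Sox2*, were lower in both 500 nM samples, against 18% of all genes, and none was higher in both, against 16.6%. *Six3*, the one with the smallest p, went from 810 and 966 CPM without agonist to 713 and 758 CPM with 500 nM (-0.25 ± 0.09, adjusted p = 0.633).

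In photoreceptors 1 of 6 genes tested was lower in both 500 nM samples (18.3% of all genes) and 1 was higher (15.8%). *Six6* went from 385 and 497 CPM to 328 and 332 CPM (-0.36 ± 0.12, adjusted p = 0.635). Its trend was -0.16 per unit of log10(dose in nM + 1), with an unadjusted p of 0.000701 and an adjusted p = 0.401 by edgeR, the smallest unadjusted p of the 29 trends. *Lhx2* went from 58.1 and 58.5 CPM to 85.3 and 91.4 CPM (0.61 ± 0.21, adjusted p = 0.641), on 66 and 28 UMIs against 57 and 46. The 6 primary progenitor markers, all found in the matrix, were also summed in photoreceptors. They gave 135 and 121 CPM in the untreated samples and 150 and 364 CPM at 500 nM. Of these sums *Ccnd1* alone made up 88.0 and 96.1 CPM untreated and 114 and 296 CPM at 500 nM. Primary progenitors made up 18.1% and 25.4% of the untreated and 29.8% and 41.6% of the 500 nM samples. The part of these markers and cells in the *Lhx2* result was not tested. Without the 5% of cells that Scrublet scored highest as doublets, the *Lhx2* difference was 0.32 ± 0.24.

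The allelic series addresses the same network in retinas that differ in their *Sstr2* genotype labels. None of the 8 genes was called between retinas labelled knockout and wild type in any cell type. At P0, 0 of 33 tests were called by edgeR (1 below an unadjusted p of 0.05) and 0 by DESeq2 (0 below it). At P14 0 of 23 were called by edgeR (2 below) and 0 by DESeq2 (0 below). Of all genes tested at P0, 0.0251% were called in primary progenitors, 0.0334% in neurogenic progenitors, 0.00987% in photoreceptors, 0.00964% in amacrine cells and 0.658% in RGCs. At P14, 0.0567% were called in Muller glia, 0.091% in bipolar cells, 0.412% in cones, 0.0211% in rods and 0% in amacrine cells. The shares of all genes below an unadjusted p of 0.05 are not given for P0 and P14. With 1 wild-type sample, the spread in these fits came from the heterozygous and knockout pairs. In P14 amacrine cells both heterozygous samples held 4 cells and were left out, so there the spread came from the 2 knockouts alone. It was wholly pooled over genes, since edgeR's prior degrees of freedom were infinite in these cells.

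*Sox8* was the gene whose knockout samples lay lowest in progenitors and in Muller glia. In P0 primary progenitors it had 62.7 CPM in the wild type, 58.7 and 63.8 CPM in the heterozygotes and 56.0 and 50.6 CPM in the -/- samples (-0.26 ± 0.13, adjusted p = 0.993 by edgeR). In neurogenic progenitors of the same samples it had 28.7 CPM, 31.9 and 26.8 CPM, and 21.7 and 24.8 CPM (-0.31 ± 0.32, adjusted p = 0.968). In P14 Muller glia, from other samples, it had 83.5 CPM, 72.8 and 101 CPM, and 49.6 and 55.1 CPM (-0.68 ± 0.31, adjusted p = 1.000), on 39 and 33 UMIs in the knockouts and 108, 52 and 15 in the others. The knockout samples were below all others in the 3 cell types, as were 8.16%, 10.8% and 7.85% of all genes tested in P0 primary progenitors, P0 neurogenic progenitors and Muller glia, and *Sox8* was the only 1 of the 8 genes to do so in each. The share of all genes to do so in all 3 cell types is not given. The differences of *Sox8* did not pass the test in any of the 3.

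Of the other genes, *Six6* was higher in both knockouts than in all other samples in P0 primary progenitors, at 218 and 201 CPM against 182 CPM in the wild type and 197 and 189 CPM in the heterozygotes (0.18 in log2). It was 1 of 8 genes to do so, against 11.2% of all genes. In P0 neurogenic progenitors 4 of 8 genes were higher in both knockouts, against 9.84% of all genes. *Sox9* had 151 and 148 CPM against 121 CPM and 123 and 141 CPM (0.29 ± 0.16, adjusted p = 0.929 by edgeR). *Lhx2* had 169 and 153 CPM against 138 CPM and 128 and 143 CPM (0.21 in log2). *Six3* had 413 and 416 CPM against 368 CPM and 354 and 365 CPM (0.16 in log2). *Sox2* had 165 and 162 CPM against 143 CPM and 135 and 150 CPM (0.18 in log2). None of these passed the test. *Sox9* lies 831.582 kb from *Sstr2* on chromosome 11, so the mutation and the C57BL/6 or CD1 sequence near it cannot be told apart as sources of a *Sox9* difference.

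**Figure D4:**
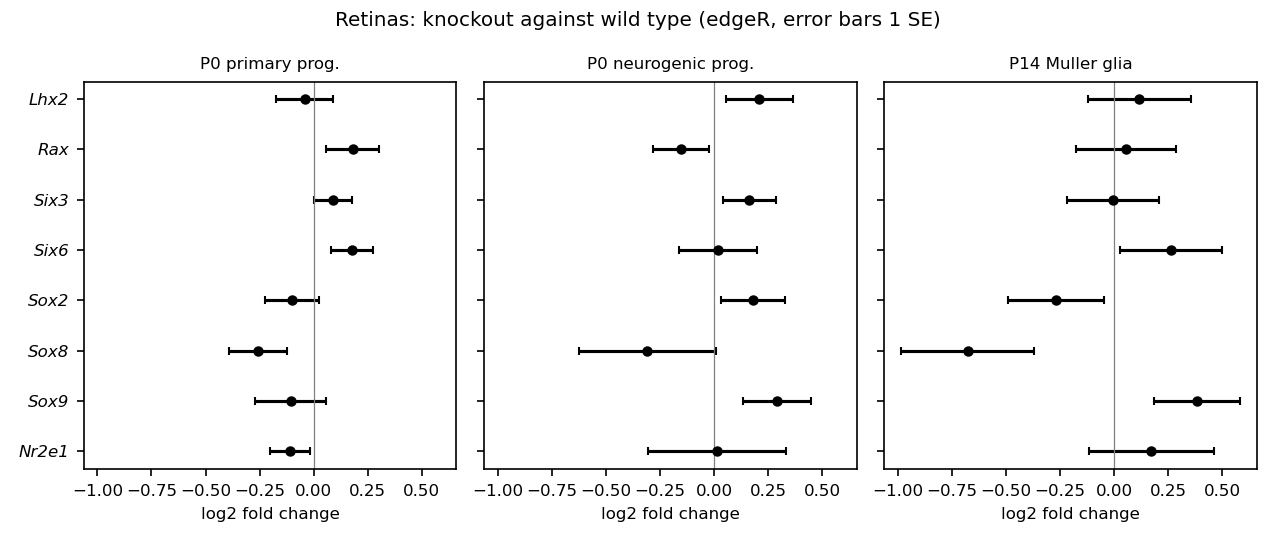
Log2 fold change of the 8 genes between samples labelled knockout (n = 2) and wild type (n = 1) in P0 primary progenitors, P0 neurogenic progenitors and P14 Muller glia, by edgeR (points, with error bars of 1 SE). *Sox8* lies below 0 in the 3 panels, and its difference passes no test.

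In Muller glia 0 of 8 genes were higher in both knockouts than in all others, against 9.95% of all genes. *Sox9* had 757 CPM in the wild type, 1036 and 951 CPM in the heterozygotes and 934 and 1036 CPM in the knockouts, so its log2 fold change of 0.38 against the wild type rests on 1 sample and was -0.034 against the heterozygotes. The same held for bipolar cells, where *Sox9* had 10.0 CPM in the wild type, 28.5 and 37.7 CPM in the heterozygotes and 27.0 and 42.8 CPM in the -/- samples (1.80 ± 0.57, adjusted p = 1.000). Against the heterozygotes it was 0.15 ± 0.47. In P0 amacrine cells *Nr2e1* had the smallest unadjusted p of that library (0.0345, adjusted p = 0.998), on few UMIs. Without knockout replicate 2 its log2 fold change went from 2.54 to 0.79.

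The wider network was described by a list of 33 other names, of genes that act with these factors or in the same cells. *Tle5* and *Aes* on it name the same gene, and only *Aes* was found in the matrices. The explant matrix held 32 of the names and the others 31, and 9 to 30 of them passed the filter on low counts in a cell type. By edgeR 3 tests were called in explants and 1 at P0. *Hes5*, a Notch effector that keeps progenitors undifferentiated, fell in explant primary progenitors, from 2166 and 2147 CPM at 0 nM to 1585 and 1387 CPM at 500 nM (log2 fold change of -0.59, adjusted p = 0.0050). It had 1210 and 1590 CPM with 50 nM, and 1649 and 2129 CPM with 5 nM, so all 6 treated samples lay below the untreated ones. The share of all genes with such an order is not given. *Ccnd1*, a cyclin of dividing progenitors, rose in explant photoreceptors, from 88.0 and 96.1 CPM to 114 and 296 CPM (1.12, adjusted p = 0.0032), and in amacrine cells, from 41.1 and 60.2 CPM to 62.9 and 133 CPM (1.08, adjusted p = 0.0082). Without 500 nM replicate 2 its log2 fold changes were 0.34 and 0.45 and were not called. *Ccnd1* is one of the 6 primary progenitor markers. In photoreceptors of that sample it made up 296 of their summed 364 CPM given above, so the sum mostly restates its own level. The part of the other markers in the *Ccnd1* result was not tested. *Meis2*, a TALE homeodomain factor, was called lower in P0 RGCs (-2.04, adjusted p = 1.24e-12), but its samples overlapped, with 291 CPM in the wild type, 7.97 and 260 CPM in the heterozygotes and 120 and 8.93 CPM in the knockouts. The samples at 7.97 and 8.93 CPM were those with an *Xist* UMI in 99.4% of cells at P0. The part of sex makeup in the *Meis2* result was not tested. In P0 RGCs edgeR's prior degrees of freedom were infinite, so that a gene's own spread did not enter its test. None of the 4 calls was made by DESeq2, where the adjusted p was 1.000 in each, or by edgeR's robust fit, which was added once the data had been seen, where the adjusted p was 0.0562 for *Hes5*, 0.944 and 0.261 for *Ccnd1*, and 0.957 for *Meis2*.

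The cycling state of the progenitors gave a further split, which was chosen after the values were seen and is described without a test. Primary and neurogenic progenitors were divided by whether they held a UMI of *Mki67*, a gene of dividing cells, after thinning to 2000 UMIs. At P0, 162 of the neurogenic progenitors held one and 507 did not. Among these, *Sox2* had a median over samples of 250 CPM with *Mki67* and 115 CPM without, *Six6* 217 and 63.8 CPM, and *Rax* 400 and 295 CPM, each higher with *Mki67* in 5 of 5 samples. *Sox9* ran the opposite way, at 69.4 and 160 CPM, and was lower with *Mki67* in 5 of 5 samples. Of 5793 genes, 10.3% were higher and 8.18% lower in every sample, so 3 and 1 of the 8 genes stand beside these shares. In explant neurogenic progenitors, *Sox2* was higher with *Mki67* in 7 of 8 samples (medians of 298 and 78.5 CPM) and *Sox9* lower in 7 of 8 (48.6 and 104 CPM), but *Six6* was higher in only 2 of 8 and *Rax* in 2 of 8. The explant samples held as few as 4 such cells with *Mki67* and the P0 samples as few as 22, so the thinned values rest on few UMIs. Without thinning the P0 differences were smaller, with medians of 212 and 85.6 CPM for *Sox2*, 129 and 93.6 CPM for *Six6* and 132 and 162 CPM for *Sox9*, in the same direction in 5 of 5 samples each. *Rax* was then at 344 and 292 CPM and was higher with *Mki67* in 4 of 5 samples, the wild type being at 351 and 359 CPM. *Lhx2*, *Six3* and *Nr2e1* were then also higher with *Mki67* in 5 of 5 P0 samples. The set of genes that separated thus changed with the thinning, and shares of all genes without thinning are not given. In explants *Sox2* was then higher and *Sox9* lower with *Mki67* in 8 of 8 samples.

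In primary progenitors the same split looked different. At P0 (1056 cells with *Mki67* and 1739 without), *Sox9* was higher with *Mki67* in 5 of 5 samples (317 and 242 CPM), as was *Sox2* (310 and 245 CPM), against 14.3% of 5741 genes. *Sox9* thus lay on opposite sides in primary and neurogenic progenitors of the same 5 samples, a difference that was not tested. In explants *Rax* was lower with *Mki67* in 8 of 8 samples (237 and 324 CPM), against 2.57% of 6120 genes, while at P0 it was lower in 3 of 5. Without thinning *Sox9* (291 and 235 CPM) and *Sox2* (310 and 247 CPM) were again higher with *Mki67* in 5 of 5 P0 samples. *Lhx2*, *Six3*, *Six6* and *Nr2e1* were then also higher with *Mki67* in 5 of 5 P0 samples, and *Sox8* was lower. In explants without thinning, *Rax* was lower in 7 of 8 samples, with 301 and 298 CPM in 0 nM replicate 1. *Lhx2* and *Six3* were then higher with *Mki67* in 8 of 8 explant samples.

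**Figure D5:**
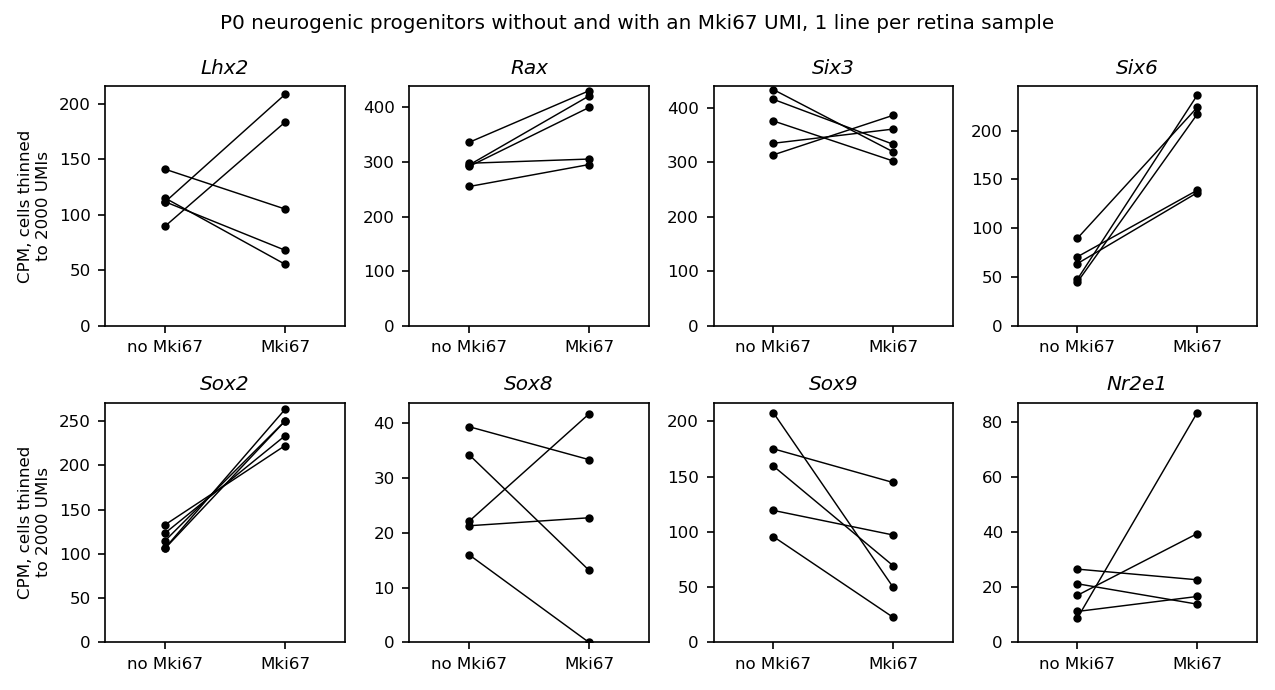
Level of the 8 genes in P0 neurogenic progenitors without and with a *Mki67* UMI, in CPM after thinning to 2000 UMIs, with 1 line per sample (n = 5) and each gene on its own linear axis. The lines of *Sox2*, *Six6* and *Rax* go up and those of *Sox9* go down in every sample, while those of the other genes cross. Without thinning *Lhx2*, *Six3* and *Nr2e1* are also higher with *Mki67* in every sample, and *Rax* is not.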

How the data were processed

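The deposited values were raw UMI counts per gene and cell, whole numbers that the authors obtained from 10x Chromium 3′ libraries (Cell Ranger 3.1.0, Seurat 3 and the mm10 build, per the submitters' processing notes). The authors assigned cells to samples from the MULTI-seq barcodes and named cell types cluster by cluster from marker genes. Sample, dose, genotype and cell type were taken from their deposited annotation of each cell. Replicates were numbered in barcode order. Their SCT-corrected values and comparisons were not used.

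For each sample and cell type, counts were added up and given as CPM, including sums of fewer than 10 cells. Only sums of at least 10 cells entered the tests and the shares of genes that did not overlap between groups. The sums were normalized by TMM, filtered with filterByExpr and tested by the quasi-likelihood method of edgeR 4.0.16 (R 4.3.3), with 1 fit for all samples of a library and cell type. p-values were adjusted by Benjamini-Hochberg over all genes of the cell type, with a threshold of 0.05. SEs were the log2 fold change divided by the square root of F. edgeR's test weighs a gene's own spread with one pooled over genes. The prior degrees of freedom were infinite in explant RGCs, P0 RGCs and P14 amacrine cells. Elsewhere they were 34.3 to 60.9 against 4 residual ones in explants and 6.17 to 12.2 against 2 at P0. At P14 they were 11.0 to 225 against 2. DESeq2 1.42.0, its size factors in edgeR, no filter, cells with an *Xist* UMI, other comparison groups, leaving out each sample, and removal of the top 5% of cells by Scrublet score (scanpy 1.11.5) were alternatives, and otherwise doublets were kept. edgeR's robust fit was added after the data were seen. Total counts per sample set the precision, and floors of 3 UMIs cover counting error only. Shares of cells used cells thinned to 2000 UMIs. On simulated counts for the 500 nM against 0 nM comparison in explant primary progenitors (8292 genes, of which 200 were changed 4-fold), edgeR recovered 92% and DESeq2 79.5%. For knockout against wild type they recovered 83.5% and 70.5% in P0 primary progenitors (11701 genes) and 70% and 32% in P14 Muller glia (8374 genes). In this order edgeR also called 8, 10 and 5 unchanged genes, and DESeq2 2, 0 and 0. The simulated spread followed the trend over genes and not each gene's own. The largest log2 fold changes of the 8 genes in these comparisons were -0.34, -0.26 and -0.68, far below 4-fold. The recovery of changes of that size was not simulated.

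The 8 genes were named in full. Of the 33 other names on the network list up to 6 past the threshold were named by size of change. For each of the 8 genes the 3 with the highest r over cell type means were named, among genes with at least 20 CPM in 1 of them. The 8 genes, the network genes and the marker lists were chosen with earlier results of these data known. Gene positions came from GENCODE annotation of GRCm38 and upstream sequences from RefSeq.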

Additional observations from a re-analysis of the deposited data

Results flagged for a closer look

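The dose difference of *Lhx2* took opposite directions in explant cell types. Between 500 and 0 nM both samples were higher in photoreceptors and both were lower in neurogenic and in primary progenitors. The log2 fold change in photoreceptors exceeded that in neurogenic progenitors by 1.06 and that in primary progenitors by 0.86. Without 0 nM replicate 1 the value in neurogenic progenitors went from -0.46 to -0.26, and without 500 nM replicate 2 that in primary progenitors went from -0.25 to -0.14. Without high Scrublet scores *Lhx2* in photoreceptors was at 53.5 and 55.1 CPM (0 nM) and 64.0 and 71.2 CPM (500 nM). The 6 primary progenitor markers in these photoreceptors summed to 135 and 121 CPM (0 nM) and 150 and 364 CPM (500 nM). Of these sums *Ccnd1* alone made up 88.0 and 96.1 CPM (0 nM) and 114 and 296 CPM (500 nM). The part of the 6 markers was not tested. These differences between cell types were not themselves tested, and neither the rise nor the falls passed an adjusted p of 0.05.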

How the results depend on the processing

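The count of 0 of the 8 genes called held under every alternative run for the 3 comparisons and the dose trend. Leaving out each sample in turn gave 0 called, with 2 to 7 tests below an unadjusted p of 0.05 in explants, 1 to 5 at P0 and 1 to 2 at P14. edgeR's robust fit gave 7, 1 and 3 such tests. At P0, 7 tests were below it against the heterozygotes and 6 against both other genotypes together. The shares of all genes below it are given neither for these comparisons nor for the fits without a sample or by the robust fit. Of 278 alternatives of 22 single-gene changes, 259 kept direction and side of the threshold, 18 lost a call and 1 changed direction, which was *Sox9* in Muller glia against the heterozygotes (-0.034). The lost calls were those of *Ccnd1*, *Hes5* and *Meis2*, the only genes of the 22 changes with a call to lose. For the rest, keeping the side of the threshold means only that no alternative called them. *Ccnd1* was not called without 0 nM replicate 1 or 500 nM replicate 2, nor without high Scrublet scores (0.90 in amacrine cells and 0.62 in photoreceptors), and *Hes5* was not called without either 0 nM replicate (adjusted p of 0.218 and 0.240 by edgeR). *Six6* in explant photoreceptors was -0.57 and -0.22 without 0 nM replicates 1 and 2, and *Six3* in amacrine cells was -0.37 and -0.15. *Lhx2* was -0.26 in neurogenic progenitors without 0 nM replicate 1 and -0.14 in primary progenitors without 500 nM replicate 2. *Meis2* was -5.02 and -1.32 without knockout replicates 1 and 2, and *Six6* in P0 primary progenitors was 0.11 without knockout replicate 1. The 18 pairs of a gene and a library highest in primary progenitors or Muller glia became 17 to 21 under other depths, doublet removal or means over cells. No paired analysis was possible because the deposited annotation gives barcodes and no replicate numbers. Genes with few UMIs, such as *Nr2e1* outside progenitors and glia, could not show moderate changes at this depth.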

Other observations

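P0 photoreceptors gave values that the comparison with the single wild-type sample does not show. Between the knockout and heterozygous samples, *Sox2* was at 83.4 and 61.3 CPM against 140 and 88.7 CPM (log2 fold change of -0.67 ± 0.22, adjusted p = 0.561 by edgeR), with 71.3 CPM in the wild type. *Nr2e1* was at 15.2 and 29.6 CPM against 41.6 and 33.5 CPM (-0.70 ± 0.28, adjusted p = 0.678), and the wild type had 30.8 CPM. *Lhx2* was at 119 and 114 CPM against 163 and 131 CPM (-0.33 ± 0.14, adjusted p = 0.691), with 132 CPM in the wild type. *Rax*, which is higher in photoreceptors than in primary progenitors, was at 335 and 418 CPM against 282 and 321 CPM (0.33 ± 0.12, adjusted p = 0.630). Its wild type had 347 CPM, between the knockouts. These 4 genes were named for an unadjusted p under 0.05 once their values were known, and none passed the test. Without the 5% of cells that Scrublet scored highest, *Lhx2* overlapped, at 107 and 76.9 CPM against 111 and 101 CPM. *Sox2* (65.9 and 43.5 against 88.6 and 68.1 CPM), *Nr2e1* (12.3 and 17.6 against 34.2 and 20.6 CPM) and *Rax* (348 and 471 against 307 and 347 CPM) did not. *Six6*, at 193 and 202 CPM against 202 and 167 CPM, and *Sox8*, at 19.9 and 13.0 CPM against 29.7 and 18.6 CPM, overlapped. The share of all genes that did not overlap between these knockout and heterozygous samples is not given, so these values cannot be set against it. Over the P0 photoreceptors the 6 primary progenitor markers, all detected, summed to 1087 to 1914 CPM by sample, and their part in these values was not tested.

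In P0 amacrine cells the same comparison gave *Lhx2* at 142 and 134 CPM against 101 and 119 CPM (0.34 ± 0.12, adjusted p = 0.970) and *Rax* at 35.2 and 45.7 CPM against 53.1 and 67.0 CPM (-0.55 ± 0.19, adjusted p = 0.959). The wild type had 115 CPM of *Lhx2*, between the heterozygotes, and 42.5 CPM of *Rax*, between the knockouts. Here too no share of all genes is given for the lack of overlap.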
